A study of Nicotiana tabacum with 6 samples.

Results

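The genes described here are the loci of the tobacco explant transcriptome whose protein match names a component of the mitochondrial respiratory chain. They were chosen by words of that protein match alone (mitochondrial NADH dehydrogenase, succinate dehydrogenase, cytochrome b-c1 complex, cytochrome c oxidase, ubiquinol and alternative oxidases, and mitochondrial ATP synthase), which gave 135 of the 39825 loci in the expression table. No expression value entered this rule, but the members were chosen with earlier results of these data known. By the protein text, 47 loci belonged to complex I, 11 to complex II, 7 to complex III, 13 to complex IV, 25 to complex V and 4 to the alternative oxidases. A further 26 loci were assembly or maturation factors, and 2 loci were ubiquinol oxidase 4, the plastid terminal oxidase, which shares the protein family but works in plastids. Expression was set as FPKM, which divides the fragments of a locus by its length and by the library's total, and 127 of the 135 loci reached the mean FPKM of 0.5 over the 6 libraries that was needed for the test. The member just above this limit was a COX15 locus with a mean of 0.63 FPKM, and the one just below it was an unspecified NADH dehydrogenase locus with a mean of 0.39 FPKM.

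The study placed cotyledon explants of tobacco on medium with either 0.5 mg/L or 0.1 mg/L of NAA, a synthetic auxin, beside the cytokinin 6-BA that both media contained, and sampled them at 2 weeks. There were 3 RNA-seq libraries for each treatment, made from whole explants, a mixture of cell types. The sample labels name Nicotiana tabacum, the study's text names Nicotiana benthamiana, and the loci are those of the N. benthamiana genome Niben261. Whether the libraries of a treatment came from separate cultures is not given, so p-values measure the spread between these libraries, which may be technical. Whether the explants had been infected with Agrobacterium is not given for these libraries.

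The respiratory chain of the inner mitochondrial membrane passes electrons from NADH (through complex I) and succinate (through complex II) to ubiquinone, then through complex III and cytochrome c to complex IV, which reduces oxygen. Complexes I, III and IV pump protons, and complex V, the ATP synthase, uses the proton gradient to make ATP. Plant mitochondria have bypasses that pump no protons: the type II NAD(P)H dehydrogenases beside complex I, and the alternative oxidases, which pass electrons from ubiquinol to oxygen directly. Most subunits are encoded in the nucleus and imported as proteins. Each complex holds a set of subunits with counterparts in bacterial enzymes, most of which carry the cofactors or the active sites, and a set of mostly small supernumerary subunits.

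Most respiratory chain loci had lower transcript levels in explants on 0.5 mg/L NAA. Of the 127 loci tested, 78 fell (61.4%) and 7 rose, at an adjusted p under 0.05 in limma's moderated test, with p-values adjusted by the Benjamini-Hochberg method over all loci tested. Among all 32443 loci tested, 20.2% fell and 21.7% rose. The changes were small: the median log2 fold change (log2FC, 0.5 over 0.1 mg/L NAA, on log2(FPKM + 1)) of the members was -0.35, with a range of -1.03 to 0.75, beside 0.02 for all loci. No member met the study's criteria for differential expression (adjusted p under 0.05 and an absolute log2FC of at least 1) in either direction, against 2.62% of all loci lower and 3.24% higher, although 92 members had an unadjusted p under 0.05 in limma's test. A pair of weakly expressed loci stood near these criteria and met them, as lower in 0.5 mg/L NAA, under some alternatives. These were Niben261Chr07g0438001, a subunit d locus of complex V (log2FC -1.15 with a pseudocount of 0.1 and -1.02 without replicate 1 of 0.5 mg/L NAA), and Niben261Chr02g1484008, a partial succinate dehydrogenase assembly factor 2 locus (-1.09 with that pseudocount and -1.05 without replicate 3 of 0.5 mg/L NAA). In 84 members the 3 libraries of 0.5 mg/L NAA were all below the 3 of 0.1 mg/L NAA, and in 9 members they were all above. Over all loci tested these shares were 25.9% and 28.8%.

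Values were not scaled between libraries beyond FPKM, and the FPKM totals were unequal, 986722 to 1015420 with 0.5 mg/L NAA and 1140994 to 1155639 with 0.1 mg/L NAA. When every library was rescaled to the same total (TPM), the median log2FC of all loci moved to 0.19 and that of the members to -0.17, so the members' distance from all loci was -0.36 (-0.38 unscaled). With this scaling 49 members fell and 18 rose, against 12.2% of all loci that fell and 34.5% that rose. Calls in the higher direction then made up 26.9% of the members' calls, in place of 8.24% unscaled. Over all loci they made up 73.8% of the calls, in place of 51.7% unscaled. The count of 7 members that rose dropped to 3 without replicate 1 of 0.1 mg/L NAA, 3 without replicate 2 and 4 without replicate 3. The count that fell was 60 to 74 when 1 library was left out.

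The 2 treatments also differed in markers of photosynthetic cells and of xylem, while the sums of the cyclins that mark dividing cells overlapped. The summed FPKM of the 43 chlorophyll a-b binding protein loci, markers of photosynthetic cells, was 1480 to 1730 with 0.5 mg/L NAA and 4880 to 5530 with 0.1 mg/L NAA, and 36 of the 38 tested fell. The 13 secondary-wall loci that mark xylem summed to 47.0 to 82.4 FPKM with 0.5 mg/L NAA, against 163 to 167 FPKM with 0.1 mg/L NAA, and 9 fell while 1 rose. The 20 loci with the words cyclin-A or cyclin-B, markers of dividing cells, summed to 424 to 521 FPKM with 0.5 mg/L NAA and 804 to 824 FPKM with 0.1 mg/L NAA, and 8 of 16 tested fell. The search words also took in loci that are not cyclins. In 4 of the 20 loci the KEGG symbol was POMP, a proteasome maturation protein, and in 2 it was CACYBP, a calcyclin-binding protein, and these 6 all fell. The 14 loci of cyclins A and B themselves summed to 69.6 to 80.6 FPKM with 0.5 mg/L NAA and 68.6 to 77.2 FPKM with 0.1 mg/L NAA, and of the 10 tested 2 fell and none rose, with a median log2FC of 0.13. Rescaled to the same total, 6 of the 16 loci tested in the whole list, with the POMP and CACYBP loci, fell and 4 rose. The cyclins alone were not counted with this scaling. None of the 3 lists had a locus at 0 in all 6 libraries. The part of these cells in the fall of the respiratory chain was not tested, and in bulk tissue fewer cells of a type and less RNA per cell cannot be told apart. Replicate 2 of 0.5 mg/L NAA stood apart in fermentation enzymes, with alcohol dehydrogenase, lactate dehydrogenase and pyruvate decarboxylase loci summing to 739 FPKM, against 145 and 168 FPKM in the other libraries of 0.5 mg/L NAA and 245 to 252 FPKM with 0.1 mg/L NAA. Without that library 71 members fell and 7 rose. The library with the lowest depth was replicate 3 of 0.1 mg/L NAA, at 0.737 of the depth of replicate 1, and without it 67 members fell and 4 rose.

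**Figure D1:**
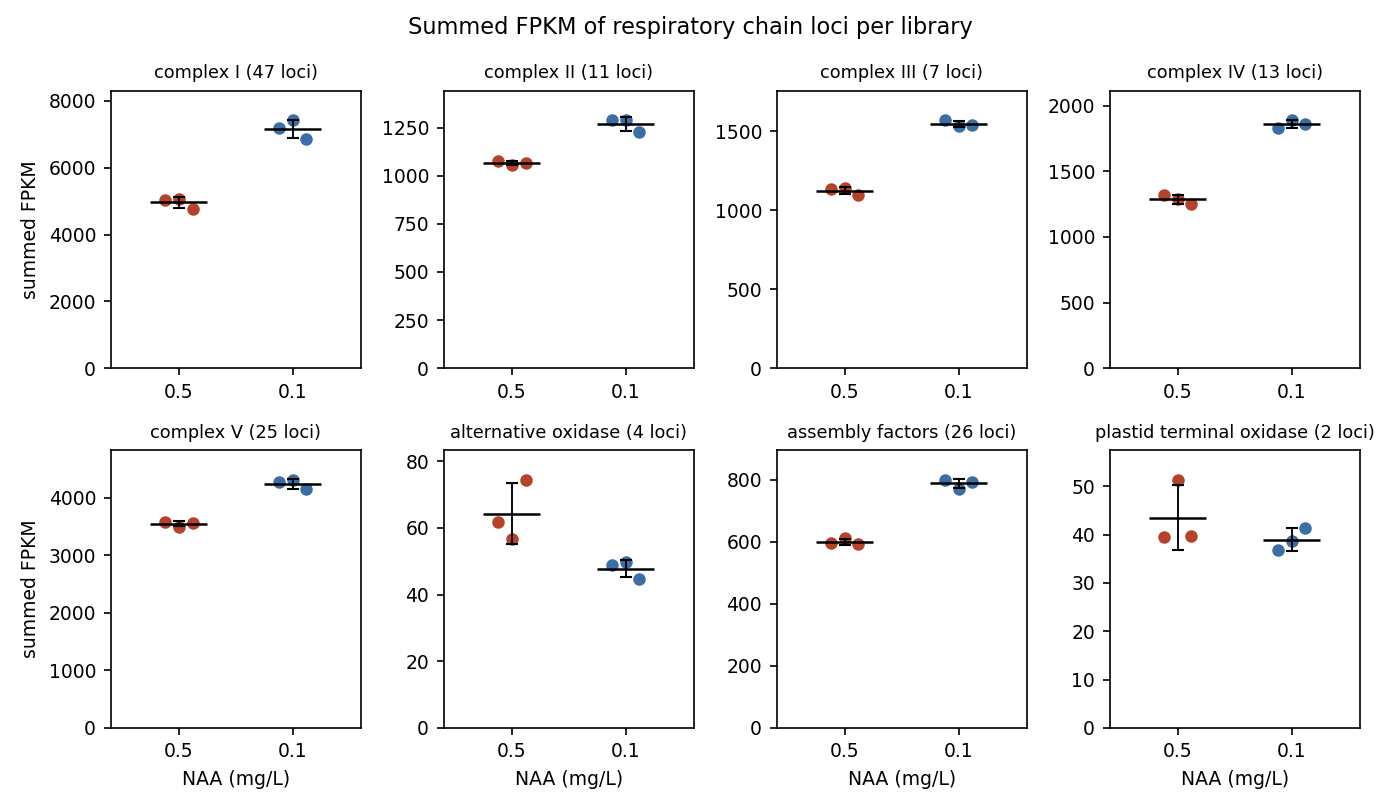
Summed FPKM of the loci of each class in each library (y axis, starting at 0), with 0.5 mg/L NAA on the left and 0.1 mg/L NAA on the right of each panel. Points are libraries, and bars give the mean and SD of 3 libraries; complexes I to V and the assembly factors were lower in all libraries of 0.5 mg/L NAA, and the alternative oxidases were higher.

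The summed FPKM of the member loci of each of complexes I to V was lower in every library of 0.5 mg/L NAA, before any rescaling. These sums cover the loci that the search words took in, not every subunit of a complex. For complex III they leave out the large core subunits. The loci of complex I summed to 4961 ± 160 FPKM with 0.5 mg/L NAA and 7154 ± 276 FPKM with 0.1 mg/L NAA (SD, n = 3 each, as for all sums here), a ratio of 0.693. Complex IV had nearly the same ratio, 0.692, with sums of 1289 ± 33.9 FPKM with 0.5 mg/L NAA and 1862 ± 28.3 FPKM with 0.1 mg/L NAA. Complex III summed to 1125 ± 23.2 FPKM with 0.5 mg/L NAA and 1549 ± 19.9 FPKM with 0.1 mg/L NAA, a ratio of 0.726. The difference was smaller in the other complexes. Complex II summed to 1065 ± 8.98 FPKM with 0.5 mg/L NAA and 1268 ± 35.3 FPKM with 0.1 mg/L NAA (ratio 0.840), and complex V to 3546 ± 46.0 FPKM with 0.5 mg/L NAA and 4239 ± 86.0 FPKM with 0.1 mg/L NAA (ratio 0.836). The alternative oxidases went the other way, with 64.3 ± 9.14 FPKM in 0.5 mg/L NAA and 47.8 ± 2.63 FPKM in 0.1 mg/L NAA. For each of these sums the exact permutation test gave p = 0.1 (two-sided, adjusted p = 0.114 over 8 classes), which is the smallest p that 3 against 3 libraries allow, so no sum could pass the threshold. Rescaled to the same total, the log2 ratios of the sums were -0.33 for complex I, -0.34 for complex IV and -0.27 for complex III, but -0.06 for both complex II and complex V. Together the members made up 1.26 to 1.27% of the FPKM total in 0.5 mg/L NAA and 1.45 to 1.5% in 0.1 mg/L NAA.

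**Figure D2:**
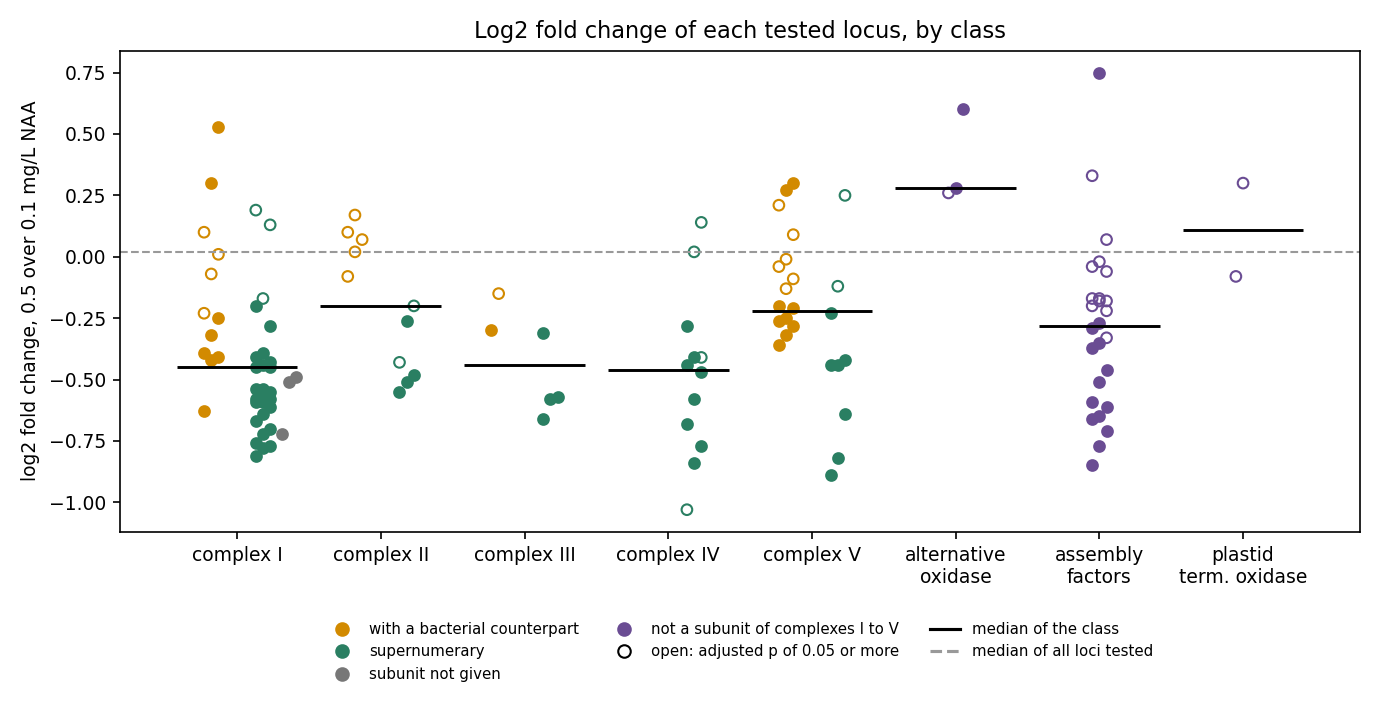
Log2 fold change of each of the 127 tested loci (y axis, 0.5 over 0.1 mg/L NAA) by class. Filled points have an adjusted p under 0.05, colours separate subunits with a bacterial counterpart from supernumerary ones, and black bars are class medians; supernumerary subunits lie mostly below the median of all loci (0.02, dashed), and those with a bacterial counterpart spread on both sides of it.

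In complex I, the NADH dehydrogenase, 34 of 43 tested loci fell and 2 rose, with a median log2FC of -0.45. Rescaled to the same total, 24 fell and 4 rose, and the median was -0.27. The protein text of the complex I loci is truncated, so subunits are given by the KEGG symbol, which uses human names. NDUFS5, a supernumerary subunit, had the highest level of the complex. This locus (Niben261Chr12g1282005, chromosome 12) had 371.7, 379.37 and 320.42 FPKM in 0.5 mg/L NAA, against 628.02, 593.28 and 616.99 FPKM in 0.1 mg/L NAA. The treatments did not overlap, and NDUFS5 fell by 0.78 on the log2 scale (SE 0.09, adjusted p = 0.00071 in limma's test). The second highest locus, Niben261Chr10g0537011 on chromosome 10, carries no subunit name and had 337.0, 307.18 and 294.72 FPKM in 0.5 mg/L NAA, against 518.34, 534.92 and 489.64 FPKM in 0.1 mg/L NAA (log2FC -0.72, SE 0.08, adjusted p = 0.00072). The largest fall of the complex was in NDUFS6, a small zinc-binding subunit. This locus (Niben261Chr08g0370002, chromosome 8) had 139.17, 129.76 and 128.96 FPKM in 0.5 mg/L NAA and 239.74, 257.7 and 203.69 FPKM in 0.1 mg/L NAA, without overlap (log2FC -0.81, SE 0.10, adjusted p = 0.0009).

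The 2 complex I loci that rose both encode NDUFS1, the large iron-sulphur subunit that passes electrons away from the NADH site. The locus on chromosome 6 (Niben261Chr06g0057002) had 52.9, 49.26 and 60.25 FPKM in 0.5 mg/L NAA, against 39.31, 36.69 and 35.16 FPKM in 0.1 mg/L NAA (log2FC 0.53, SE 0.09, adjusted p = 0.0036). The copy on chromosome 12 (Niben261Chr12g1322001) had 72.81, 67.24 and 78.57 FPKM in 0.5 mg/L NAA and 61.65, 58.33 and 56.8 FPKM in 0.1 mg/L NAA (log2FC 0.30, adjusted p = 0.019). All libraries of 0.5 mg/L NAA were above those of 0.1 mg/L NAA in both copies, but the copy on chromosome 12 no longer passed without replicate 2 or without replicate 3 of 0.1 mg/L NAA. Genes named from here on beyond the 2 highest, the largest rise and the largest fall of a class were chosen after their values were seen. NDUFV1, which binds NADH and FMN, had log2FC of 0.01 and 0.10 in its 2 loci, and the main one had 49.67, 48.98 and 49.19 FPKM in 0.5 mg/L NAA, against 46.74, 45.52 and 55.02 FPKM in 0.1 mg/L NAA, with overlap. NDUFA9, supernumerary but among the larger subunits, had log2FC of 0.13 and 0.19 and did not pass in either locus.

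Other iron-sulphur subunits did fall. NDUFS8 fell in all 3 loci, with log2FC of -0.25 to -0.41, NDUFS7, which holds the last iron-sulphur cluster before ubiquinone, in 2 of 3 tested loci, and NDUFV2 in 1 of 2. Of the other supernumerary subunits of complex I, every tested locus of NDUFA1, NDUFA2, NDUFA5, NDUFA6, NDUFA8, NDUFA12, NDUFA13, NDUFB9, NDUFB10 and NDUFS4 fell, with log2FC of -0.20 to -0.77. NDUFB7 fell in 1 of 2 loci. The KEGG entry behind NDUFA12 also covers an assembly factor of the same protein family, so those 2 loci may be either.

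Complex II, the succinate dehydrogenase, links the tricarboxylic acid cycle to the chain, and in it the fall was confined to subunits 5, 6 and 7A among its 11 tested loci. Of the 2 loci of highest level, subunit 7A (Niben261Chr16g0316016, chromosome 16) had 167.97, 163.31 and 155.42 FPKM in 0.5 mg/L NAA, against 222.4, 231.54 and 227.22 FPKM in 0.1 mg/L NAA (log2FC -0.48, SE 0.06, adjusted p = 0.0013). Subunit 6 (Niben261Chr08g1211005, chromosome 8) had 136.1, 143.61 and 137.76 FPKM in 0.5 mg/L NAA, against 205.59, 205.2 and 202.23 FPKM in 0.1 mg/L NAA, the largest fall of the complex (log2FC -0.55, SE 0.06, adjusted p = 0.0007). Neither overlapped between treatments. The catalytic flavoprotein SDHA and the iron-sulphur protein SDHB did not pass in any of their 5 loci, whose log2FC were -0.08 to 0.17. The higher SDHA locus (chromosome 16) had 110.07, 99.68 and 111.56 FPKM in 0.5 mg/L NAA and 96.9, 100.69 and 102.1 FPKM in 0.1 mg/L NAA, which overlap. The sums over SDHB loci were 260.9 ± 13.6 FPKM in 0.5 mg/L NAA and 254.5 ± 24.4 FPKM in 0.1 mg/L NAA. The median log2FC of the complex was -0.20, and with libraries rescaled to the same total it was -0.00, with 3 loci that fell and 2 that rose.

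In complex III, the cytochrome b-c1 complex, 5 of 6 tested loci fell and none rose, and 3 fell with libraries rescaled to the same total. The member rule did not take in the large core subunits of this complex. Of the 9 loci tested for them, described below with protein import, 6 rose and none fell. QCR7, a small subunit of the matrix side, had the 2 highest loci. The first (Niben261Chr14g1065002, chromosome 14) had 385.81, 400.45 and 366.79 FPKM in 0.5 mg/L NAA, against 583.18, 578.6 and 557.38 FPKM in 0.1 mg/L NAA (log2FC -0.58, SE 0.07, adjusted p = 0.00096). The second (Niben261Chr03g1591005, chromosome 3) had 232.06, 223.58 and 225.62 FPKM in 0.5 mg/L NAA and 294.39, 274.15 and 279.8 FPKM in 0.1 mg/L NAA (log2FC -0.31, adjusted p = 0.0072), and did not pass when rescaled to the same total (adjusted p = 0.16). QCR6, the acidic hinge protein near cytochrome c1, had the largest fall. Its locus on chromosome 1 (Niben261Chr01g0547003) had 96.03, 93.87 and 90.11 FPKM in 0.5 mg/L NAA, against 145.45, 150.12 and 148.49 FPKM in 0.1 mg/L NAA (log2FC -0.66, SE 0.06, adjusted p = 0.00044). The Rieske iron-sulphur protein, which takes electrons from ubiquinol, changed less. Its higher locus, Rieske-5 (chromosome 11), had 167.47, 168.98 and 172.6 FPKM in 0.5 mg/L NAA, against 188.8, 191.54 and 186.62 FPKM in 0.1 mg/L NAA, all lower but short of the threshold (log2FC -0.15, adjusted p = 0.071), and Rieske-2 (chromosome 3) fell with a log2FC of -0.30.

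In complex IV, the cytochrome c oxidase, 8 of 12 tested loci fell and none rose. Rescaled to the same total, 6 fell and 2 rose. All 12 tested loci were of the supernumerary subunits 5b, 6a and 6b. The subunit 5b locus on chromosome 16 (COX5B, Niben261Chr16g1196009) had the highest level of all members, 409.45, 396.56 and 375.79 FPKM in 0.5 mg/L NAA, against 587.85, 613.93 and 560.34 FPKM in 0.1 mg/L NAA (log2FC -0.58, SE 0.07, adjusted p = 0.0012). The subunit 6a locus on chromosome 15 (COX6A, Niben261Chr15g0944002) had 230.44, 225.22 and 189.08 FPKM in 0.5 mg/L NAA and 314.92, 350.62 and 365.34 FPKM in 0.1 mg/L NAA (log2FC -0.68, SE 0.10, adjusted p = 0.002). Copies of COX6B, which joins the monomers of the dimer in mammals, differed among themselves. Both subunit 6b-3 loci fell: the one on chromosome 2 (Niben261Chr02g0352012) had 104.25, 100.9 and 93.56 FPKM in 0.5 mg/L NAA, against 180.58, 173.29 and 184.37 FPKM in 0.1 mg/L NAA (log2FC -0.84, SE 0.07, adjusted p = 0.0003), the largest fall of the complex. By contrast, the 6b-1-like locus on chromosome 11 (Niben261Chr11g0893003) had 150.56, 148.6 and 156.13 FPKM in 0.5 mg/L NAA and 150.14, 155.04 and 144.65 FPKM in 0.1 mg/L NAA, with a log2FC of 0.02. The difference between COX6B copies was not tested.

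**Figure D3:**
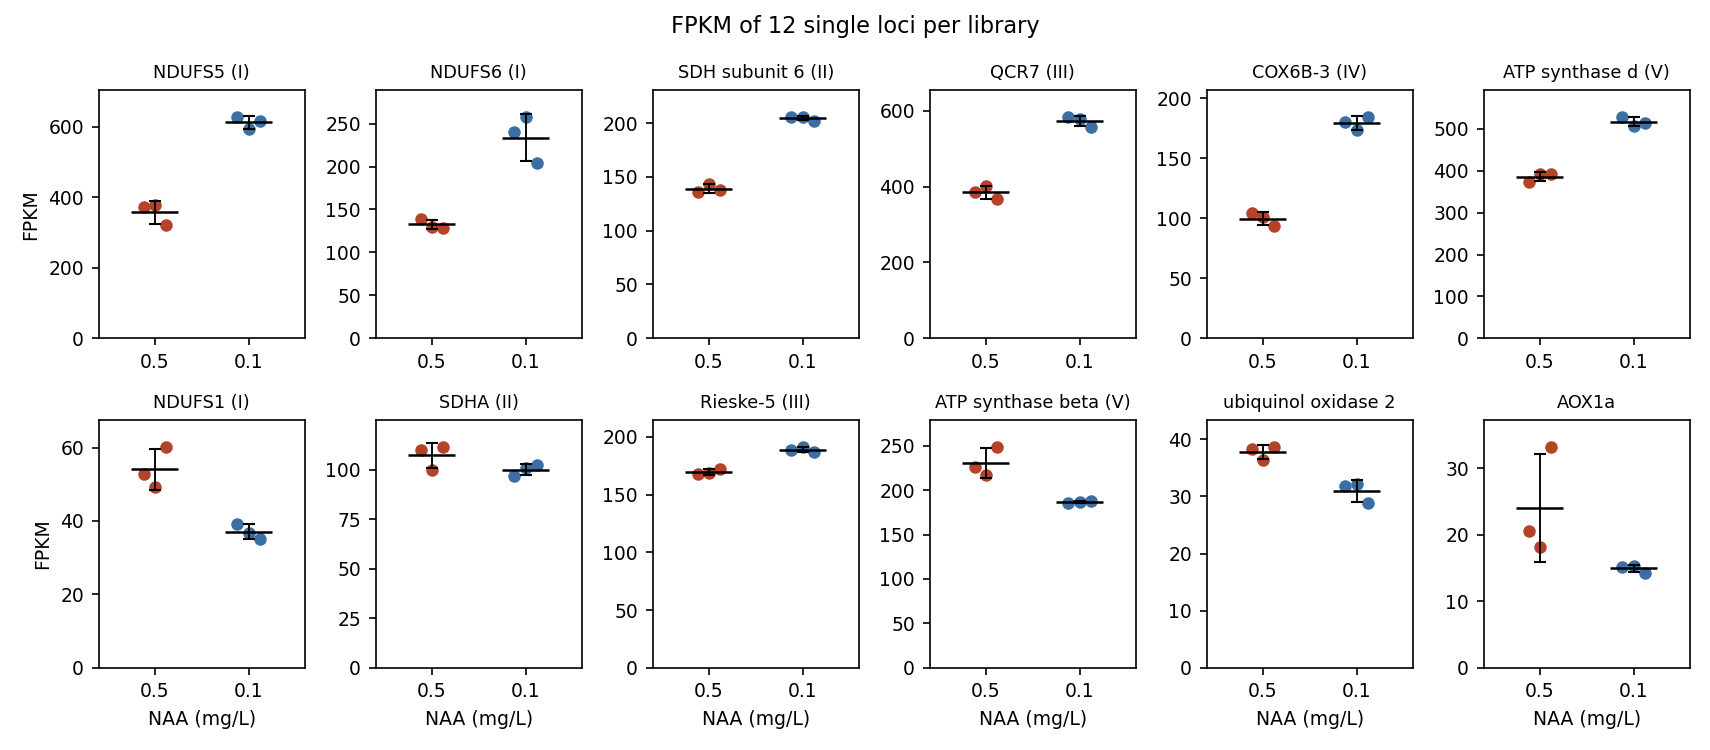
FPKM of 12 loci in each library (y axis, starting at 0), with 0.5 mg/L NAA on the left and 0.1 mg/L NAA on the right. Points are libraries, and bars give the mean and SD of 3 libraries; the upper row holds 6 supernumerary subunits that fell, and the lower row holds NDUFS1, SDHA, Rieske-5 and ATP synthase beta, each the highest or most changed of its kind, and 2 alternative oxidases.

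In complex V, the ATP synthase, 14 of 24 tested loci fell and 2 rose, with a median log2FC of -0.22. Rescaled to the same total, 6 fell and 5 rose and the median was -0.03, and the count that fell was 7 without replicate 1 and 7 without replicate 2 of 0.1 mg/L NAA, where no locus rose. The most abundant locus, subunit d of the stalk (ATPeF0D, Niben261Chr03g1190017, chromosome 3), had 373.05, 391.43 and 391.36 FPKM in 0.5 mg/L NAA, against 528.29, 506.79 and 515.26 FPKM in 0.1 mg/L NAA (log2FC -0.42, SE 0.07, adjusted p = 0.0025). Subunit O, which ties the catalytic head to the stalk, had 353.0, 354.59 and 367.76 FPKM in 0.5 mg/L NAA and 429.2, 424.08 and 424.67 FPKM in 0.1 mg/L NAA at its locus on chromosome 9 (Niben261Chr09g0785013). This is a smaller fall (log2FC -0.25, SE 0.06, adjusted p = 0.017), lost when rescaled (adjusted p = 0.5) and without replicate 1 (0.083) or replicate 2 (0.066) of 0.1 mg/L NAA. A weakly expressed subunit d locus on chromosome 7 (Niben261Chr07g0438001) had the largest fall, with 2.68, 2.18 and 1.52 FPKM in 0.5 mg/L NAA, against 4.53, 4.18 and 5.59 FPKM in 0.1 mg/L NAA (log2FC -0.89, SE 0.17, adjusted p = 0.0057). Among abundant loci the largest was subunit epsilon, a small part of the central stalk, which fell in both loci, with summed FPKM of 311.7 ± 30.9 in 0.5 mg/L NAA and 532.4 ± 76.6 in 0.1 mg/L NAA.

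The catalytic subunit beta rose in 2 of its 5 loci and fell in none. The locus on chromosome 2 (ATPeF1B, Niben261Chr02g1039014) had 226.53, 216.67 and 248.94 FPKM in 0.5 mg/L NAA, against 185.68, 187.14 and 187.87 FPKM in 0.1 mg/L NAA (log2FC 0.30, SE 0.07, adjusted p = 0.014). The locus on chromosome 19 (Niben261Chr19g1463013) had 215.76, 206.41 and 234.33 FPKM in 0.5 mg/L NAA and 177.83, 180.38 and 186.09 FPKM in 0.1 mg/L NAA (log2FC 0.27, adjusted p = 0.021). All libraries of 0.5 mg/L NAA were above those of 0.1 mg/L NAA in both, but neither passed without replicate 1 of 0.1 mg/L NAA or without replicate 2 of it. Over the 5 beta loci the sum was 733.4 ± 40.4 FPKM in 0.5 mg/L NAA and 650.0 ± 1.33 FPKM in 0.1 mg/L NAA. Subunit gamma, the rotating shaft, fell in 2 of 4 loci with log2FC of -0.20 and -0.21.

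Grouped across complexes I to V, subunits with a bacterial counterpart and supernumerary subunits differed in their counts. The grouping was made after the values were seen, so it is a description with no test. Supernumerary subunits are mostly small, so this grouping cannot be told apart from one by protein size, and size was not tested. Subunits were sorted mostly by a list of KEGG symbols set by hand, and another list would change the counts. NDUFS4, NDUFS6 and NDUFA12, which fell in all of their loci, were counted as supernumerary. Neither group holds the mitochondrial-processing peptidase, which in plants forms the large core subunits of complex III. The member rule did not take it in, so the counts and medians here leave it out. Of its 9 tested loci 6 rose and none fell, with a median of 0.32. Of the 59 tested loci of supernumerary subunits, 48 fell and none rose, with a median log2FC of -0.51. Of the 34 tested loci with a bacterial counterpart (NDUFS1, NDUFS7, NDUFS8, NDUFV1, NDUFV2, SDHA, SDHB, the Rieske protein and ATP synthase beta, gamma, delta' and O), 14 fell and 4 rose, with a median of -0.11. Rescaled to the same total, 39 supernumerary loci fell and 5 rose (median -0.31), while 2 loci with a bacterial counterpart fell and 8 rose (median 0.08). Over all loci tested, 12.2% fell and 34.5% rose with this scaling (median 0.19), against 20.2% and 21.7% unscaled (median 0.02). Of the 34 loci, 6 fell and 2 rose without replicate 1 of 0.1 mg/L NAA and 7 fell and 1 rose without replicate 2 of it. The supernumerary loci that fell were then 43 and 44. In each of complexes I, II, III and V the median of the supernumerary loci was below that of the loci with a bacterial counterpart: -0.55 against -0.24 in complex I, -0.46 against 0.07 in complex II, -0.57 against -0.23 in complex III and -0.44 against -0.13 in complex V. Some of these medians rest on few loci: 4 supernumerary and 2 Rieske loci in complex III, and 6 supernumerary and 5 SDHA or SDHB loci in complex II. The complex IV locus described as subunit 2, the complex I loci described as subunits 1 and 6 and the complex V locus described as subunit alpha, proteins that plant mitochondria encode in their own genome, were between 0 and 0.30 FPKM in every library and were not tested.

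The 2 alternative oxidase loci that passed the test both rose, and none of the 3 tested fell. These enzymes let electrons bypass complexes III and IV. Ubiquinol oxidase 2 (AOX1 by KEGG, Niben261Chr14g1219014, chromosome 14) had the highest level, with 38.26, 36.29 and 38.7 FPKM in 0.5 mg/L NAA, against 31.88, 32.11 and 28.77 FPKM in 0.1 mg/L NAA (log2FC 0.28, SE 0.07, adjusted p = 0.019). Alternative oxidase 1a (Niben261Chr03g0619007, chromosome 3) had 20.63, 18.16 and 33.29 FPKM in 0.5 mg/L NAA and 15.23, 15.34 and 14.28 FPKM in 0.1 mg/L NAA (log2FC 0.60, SE 0.20, adjusted p = 0.044). No library overlapped between treatments in either locus, and replicate 3 of 0.5 mg/L NAA held the highest value of alternative oxidase 1a. Both calls were near the threshold. Ubiquinol oxidase 2 did not pass without replicate 1 (adjusted p = 0.051) or replicate 3 (0.061) of 0.1 mg/L NAA. Alternative oxidase 1a did not pass without replicate 1 of 0.5 mg/L NAA (0.051) or without replicates 1, 2 or 3 of 0.1 mg/L NAA (0.1, 0.1 and 0.12), and over the 13 alternative settings its adjusted p was 0.015 to 0.12. The locus on chromosome 9 (Niben261Chr09g0795001) had 2.69, 2.22 and 2.44 FPKM in 0.5 mg/L NAA, against 1.74, 2.23 and 1.71 FPKM in 0.1 mg/L NAA (log2FC 0.26, adjusted p = 0.17). The one on chromosome 2 (Niben261Chr02g0642004) had 0.22, 0 and 0 FPKM in 0.5 mg/L NAA and was listed at 0 in the 3 libraries of 0.1 mg/L NAA.

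The plastid terminal oxidase did not pass in either locus. The one on chromosome 19 (Niben261Chr19g1404013) had 24.19, 32.8 and 25.41 FPKM in 0.5 mg/L NAA and 20.95, 20.39 and 24.64 FPKM in 0.1 mg/L NAA (log2FC 0.30, adjusted p = 0.1), and passed when rescaled to the same total (adjusted p = 0.017). The one on chromosome 6 (Niben261Chr06g0037001) had 15.29, 18.56 and 14.32 FPKM in 0.5 mg/L NAA and 15.81, 18.37 and 16.82 FPKM in 0.1 mg/L NAA, with overlap (log2FC -0.08, or 0.10 when rescaled).

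Assembly and maturation factors, which insert cofactors or join subunits, were at lower levels than the subunits, with a median of 20.4 FPKM against 137 FPKM. Of the 26 loci 13 fell, 1 rose and 12 did not pass (7 fell and 1 rose when rescaled to the same total). The 2 highest were succinate dehydrogenase assembly factor 2, needed for adding flavin to SDHA, and NDUFAF3, a complex I assembly factor. The assembly factor 2 locus on chromosome 18 (Niben261Chr18g1472022) had 129.1, 123.88 and 128.95 FPKM in 0.5 mg/L NAA, against 151.67, 142.56 and 135.21 FPKM in 0.1 mg/L NAA, and did not pass (log2FC -0.17, adjusted p = 0.088). NDUFAF3 (Niben261Chr09g0711002, chromosome 9) had 68.56, 77.82 and 61.59 FPKM in 0.5 mg/L NAA and 104.79, 107.74 and 104.23 FPKM in 0.1 mg/L NAA, without overlap (log2FC -0.61, SE 0.09, adjusted p = 0.0021). The largest fall was in a partial assembly factor 2 locus on chromosome 2 (Niben261Chr02g1484008), with 1.65, 1.95 and 3.28 FPKM in 0.5 mg/L NAA, against 3.88, 5.39 and 5.24 FPKM in 0.1 mg/L NAA (log2FC -0.85, SE 0.21, adjusted p = 0.014). It did not pass without replicate 2 (0.057) or replicate 3 (0.052) of 0.1 mg/L NAA.

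Among the factors of complex IV, the copper chaperone COX17, which delivers copper for the oxidase, and the related small proteins COX19 and COX23 fell in all 7 of their loci, with log2FC of -0.35 to -0.77. COX17 (chromosome 1) had 36.68, 34.21 and 36.77 FPKM in 0.5 mg/L NAA, against 56.87, 52.34 and 54.34 FPKM in 0.1 mg/L NAA. COX11, another copper protein, and COX15, which makes heme A, did not pass in any of their 4 loci. The only factor that rose was a locus described as ubiquinol-cytochrome-c reductase complex assembly factor 1, on chromosome 15 (Niben261Chr15g0883001). It was weakly expressed, with 4.25, 4.38 and 4.22 FPKM in 0.5 mg/L NAA, against 1.59, 2.8 and 2.14 FPKM in 0.1 mg/L NAA (log2FC 0.75, SE 0.16, adjusted p = 0.0078).

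Tobacco is an allotetraploid, and most subunits had several loci. Whether these loci were copies from its parent genomes was not examined. The KEGG symbol gave 43 subunits or factors for 108 loci, and 34 of these had at least 2 tested loci. In 25 of the 34 at least 1 locus fell and none rose, in 3 at least 1 rose and none fell, and in 6 none passed. In none did 1 copy rise and another fall at the adjusted p threshold, but in 6 the tested copies had log2FC of opposite sign. How reads of near-identical copies were assigned is not given for these libraries, so the values of single copies are uncertain, and the sums over copies are firmer. These sums were lower in all libraries of 0.5 mg/L NAA in 25 of the 34 and higher in 4, which were NDUFS1, NDUFA9, ATP synthase beta and the alternative oxidases. NDUFA9 loci summed to 155.5 ± 8.55 FPKM in 0.5 mg/L NAA and 139.4 ± 5.80 FPKM in 0.1 mg/L NAA.

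**Figure D4:**
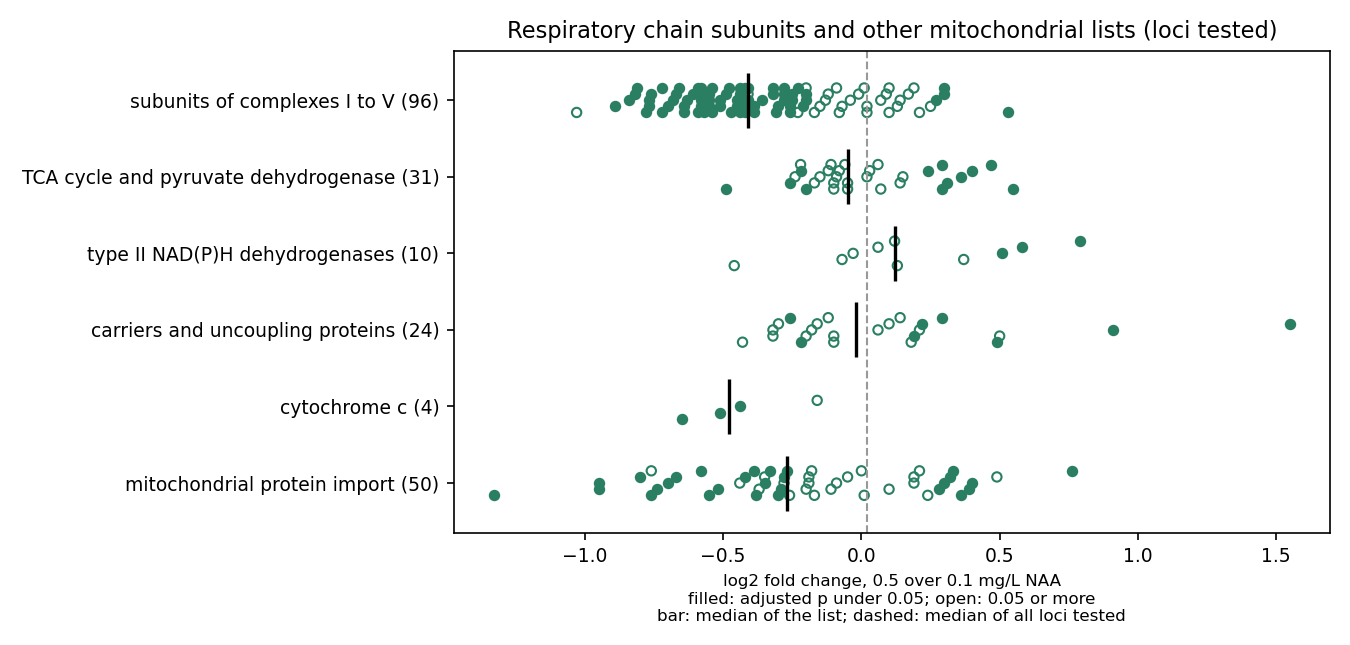
Log2 fold change of each tested locus (x axis, 0.5 over 0.1 mg/L NAA) of the subunits of complexes I to V and of 5 lists of other mitochondrial genes. Filled points have an adjusted p under 0.05, and bars are list medians; the medians were -0.41 for the subunits, -0.48 for cytochrome c, -0.27 for protein import and between -0.05 and 0.12 for the other lists.

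Other genes of mitochondrial energy metabolism were counted in the same way, beside the 20.2% of all loci that fell and 21.7% that rose. Rescaled to the same total, these shares were 12.2% and 34.5%, and the median log2FC of all loci was 0.19. With 1 library left out, 14.3 to 20.4% of all loci fell and 14.9 to 21.4% rose. Cytochrome c, the mobile carrier between complexes III and IV, fell in 3 of 4 tested loci, with a median log2FC of -0.48. Its main locus, on chromosome 18, had means of 239 FPKM in 0.5 mg/L NAA and 341 FPKM in 0.1 mg/L NAA. The search words for the tricarboxylic acid cycle and the pyruvate dehydrogenase, which supply NADH and succinate, took in 31 loci. They cover only part of these enzymes, with no aconitase or isocitrate dehydrogenase locus. Of the 31 loci 4 fell and 8 rose, with a median of -0.05 (0 fell and 11 rose, median 0.14, when rescaled to the same total). The count that rose was 4 without replicate 1 or without replicate 2 of 0.1 mg/L NAA and 5 without replicate 3 of 0.5 mg/L NAA, and the count that fell was 2 without each of these. All 4 loci of the E1 subunit of 2-oxoglutarate dehydrogenase rose, with log2FC of 0.31 to 0.55. They also rose when rescaled, and 3 of the 4 rose without replicate 1 or without replicate 2 of 0.1 mg/L NAA. The 3 loci of the succinyltransferase subunit of the same complex (DLST) did not pass, with log2FC of -0.08 to 0.15. Of the 10 tested type II NAD(P)H dehydrogenases, 3 rose and none fell, with a median of 0.12. None of these calls held without replicate 1 or without replicate 2 of 0.1 mg/L NAA, 1 locus rose without replicate 3 of it, and 1 locus rose without replicate 1 or without replicate 3 of 0.5 mg/L NAA, where in the first case 1 other locus fell.

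Of the 24 tested carriers and uncoupling proteins, most of which move ADP, ATP, phosphate or other substrates across the inner membrane, 6 rose and 2 fell, with a median of -0.02 (8 rose and none fell when rescaled). Over all loci, 34.5% rose and 12.2% fell when rescaled. The count that rose was 3 without replicate 2 of 0.1 mg/L NAA and 4 without any other single library except replicate 1 of 0.5 mg/L NAA, without which it was 7. None fell without replicate 3 of 0.5 mg/L NAA or without any 1 of the libraries of 0.1 mg/L NAA. The only one of them that was differentially expressed was a mitochondrial uncoupling protein 5-like locus (Niben261Chr06g0212012, chromosome 6), a family that carries dicarboxylates in Arabidopsis. It had 390.82, 451.5 and 429.55 FPKM in 0.5 mg/L NAA, against 153.24, 167.23 and 116.51 FPKM in 0.1 mg/L NAA (log2FC 1.55, SE 0.14, adjusted p = 0.00037). The list also held 2 ADP,ATP carriers described as chloroplastic and 2 of the endoplasmic reticulum, and none of these 4 passed. Uncoupling protein 1 fell in 1 of 2 loci, with means of 45.7 FPKM in 0.5 mg/L NAA and 54.9 FPKM in 0.1 mg/L NAA.

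The 50 tested loci of protein import divided by kind, a division made after the values were seen. The receptors and translocases, which carry proteins through the membranes, fell in 20 of 41 loci and rose in 2, with a median of -0.30 (10 fell and 3 rose when rescaled, 13 fell without replicate 3 of 0.5 mg/L NAA, and 0 to 2 rose when 1 library was left out). TOM7, a small subunit of the outer membrane pore, fell in both of its loci, and the one on chromosome 18 had means of 211 FPKM in 0.5 mg/L NAA and 357 FPKM in 0.1 mg/L NAA. A TIM14-like locus on chromosome 1 was differentially expressed, with a log2FC of -1.33. The mitochondrial-processing peptidase, which cuts targeting peptides from imported proteins and in plants forms the 2 large core subunits of complex III, rose in 6 of 9 loci and fell in none, with a median of 0.32 (8 of 9 when rescaled, 3 without replicate 1 of 0.1 mg/L NAA and 4 without replicate 2 of it). The rule that chose the members did not take in these loci. Their sums were 540, 513 and 571 FPKM in 0.5 mg/L NAA, against 428, 427 and 438 FPKM in 0.1 mg/L NAA, without overlap.

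Enzymes of the plastid were counted as well, beside the 20.2% of all loci that fell and 21.7% that rose. Rescaled to the same total, these shares were 12.2% and 34.5%. Without replicate 1 of 0.5 mg/L NAA they were 20.2% and 19.6%, and without replicate 2 of it 20.4% and 21.4%. The chloroplast ATP synthase fell in 1 of 6 tested loci (median log2FC -0.33) and none rose, and 3 fell without replicate 1 of 0.5 mg/L NAA. The plastid NDH complex, a relative of complex I, fell in 4 of 23 (17.4%, median -0.28) and none rose. In both lists the share that fell was near that of all loci. In this list 9 loci fell without replicate 1 of 0.5 mg/L NAA (median -0.42), 5 fell and 2 rose without replicate 2 of it, and 3 fell and 1 rose when rescaled to the same total. Of 12 tested loci of the fermentation list 1 fell and none rose, and this was a cinnamyl alcohol dehydrogenase, an enzyme of lignin synthesis that the search words took in. The 8 tested alcohol dehydrogenase, lactate dehydrogenase and pyruvate decarboxylase loci did not pass. These counts rested on replicate 2 of 0.5 mg/L NAA, the library with the high fermentation enzymes. Without it 6 of the 12 fell and 1 rose (median -0.42), and among those 8 loci 4 fell and 1 rose (median -0.47).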

How the data were processed

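RNA-seq was made from tobacco explants after 2 weeks on 0.5 or 0.1 mg/L NAA, with 3 libraries each. Treatment and replicate come from the sample labels. The authors deposited 1 table of FPKM values with the protein match and KEGG entry of each locus. The methods name fastp, HISAT2, StringTie and RSEM on Niben261 for the later stages; for these libraries the tools are not given in the sources used here. No counts are given, so no count model was fitted and read depth is unknown. Relative depth, from the steps of low FPKM values, was 0.986 to 1.03 of replicate 1 of 0.1 mg/L NAA, and 0.737 in replicate 3 of that treatment.

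Differential expression was tested with limma 3.58.1 (R 4.3.3; lmFit and eBayes with trend) on log2(FPKM + 1), which understates changes of low loci. The 32443 loci whose mean FPKM reached 0.5 entered the fit, with Benjamini-Hochberg adjustment across them. "Passed", "rose" and "fell" mean an adjusted p under 0.05. Differential expression also needed an absolute log2FC of at least 1, the study's thresholds. Sums per complex were compared by exact permutation over libraries (scipy 1.17.1). The fit was tested on simulated data. Alternatives were a pseudocount of 0.1, no filter, a minimum mean FPKM of 1, median-of-ratios scaling, rescaling to equal totals (TPM), a replicate block, no trend, and leaving out each library. Named by rule were, per class, the 2 highest loci and the largest rise and fall among loci that passed, and every alternative oxidase. The members and lists were chosen with earlier results of these data known. No sequences or coordinates are printed, since no Niben261 genome was used here.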

Additional observations from a re-analysis of the deposited data

How the results depend on the processing

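The replicate numbers did not pair the libraries: same-numbered libraries of the 2 treatments had correlations of deviations of 0.022, 0.010 and 0.010. With a replicate block, 68 members fell and 6 rose. No member was called in the opposite direction under any of the 13 alternatives. Rescaled to the same total (TPM), 49 members fell and 18 rose, the members' median log2FC was -0.17, and 16 members had a positive log2FC in place of a negative one. Among the members described singly these were the succinate dehydrogenase assembly factor 2 locus on chromosome 18 (0.03) and the plastid terminal oxidase locus on chromosome 6 (0.10), neither of which passed with either scaling. Leaving out 1 library gave 60 to 74 members that fell, 3 to 7 that rose, medians of -0.38 to -0.34, and 1558 to 2372 differentially expressed loci. With a pseudocount of 0.1, 2955 loci were differentially expressed, against 1902. With the added threshold on the absolute log2FC, 0 members rose and 0 fell, and 2 fell with that pseudocount. The unequal FPKM totals make the number of members that rose or fell uncertain, and their distance below all loci was -0.33 to -0.40 in every setting. The low depth of replicate 3 of 0.1 mg/L NAA limits weakly expressed loci most.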
